A study of Mus musculus with 21 samples.

Results

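Mouse taste bud RNA was examined for 10 genes of G protein alpha subunits other than gustducin, namely Gnai1, Gnai2, Gnai3, Gnao1, Gnaz, Gnas, Gnaq, Gna11, Gna15 and Gna12. They were chosen by gene name, with earlier results of these data known, and are 10 of the 16 G protein alpha genes looked up in the deposited annotation. They lie in 10 different loci of the 32052 in the deposited expression table. The labels give 21 libraries from circumvallate taste buds, the taste organs of the papilla at the back of the tongue, with 7 libraries in each of the groups Hungry, Satiated and Ad lib. The design text names fasted, fed and freely feeding mice, without pairing these words with the group names. All mice were wild-type C57BL/6J, an inbred strain, aged 20 to 24 weeks. The series asks how taste bud genes differ between fed and fasted mice. The deposited table, however, repeats 1 set of values under each of its 3 condition codes. None of the 32052 loci, and 0 of the 10 genes, differed between the codes in any of the 5 value columns. Every level below therefore pools Hungry, Satiated and Ad lib libraries, and no feeding effect on these genes could be calculated. The labels do not say whether a library is 1 mouse or several.

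Heterotrimeric G proteins pass the signal of a receptor in the cell membrane on to enzymes and channels inside the cell. The alpha subunit binds GTP when the receptor is activated, leaves the beta and gamma subunits and acts on its effector, until it hydrolyses the GTP. Alpha subunits fall into families: Gi and Go restrain adenylyl cyclase or act through beta and gamma, Gs stimulates adenylyl cyclase, Gq and its relatives activate phospholipase C beta, and G12 and G13 form a family of their own. In taste buds the best known alpha subunit is gustducin, encoded by Gnat3, which couples to bitter, sweet and umami receptors in type II cells. Gna14 of the Gq family is also known from circumvallate taste cells.

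The C-terminal end of the alpha subunit is the stretch that contacts the receptor and does much to decide which receptors a subunit can serve. The last 33 coding bases before the stop codon, read from GENCODE M21 transcripts on GRCm38, show how the members group. Capitals mark the fourth codon from the end, which in Gi and Go subunits encodes the cysteine modified by pertussis toxin.
Gnai1: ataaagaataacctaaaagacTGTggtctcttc
Gnai2, in 2 of 3 complete coding transcripts: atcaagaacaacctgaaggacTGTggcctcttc
Gnai3: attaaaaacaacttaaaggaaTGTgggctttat
Gnao1, in 2 of 3 complete coding transcripts: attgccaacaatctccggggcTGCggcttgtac
Gnao1, in 1 of 3: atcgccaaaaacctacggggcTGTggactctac
Gnaz: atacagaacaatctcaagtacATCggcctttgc
Gnas, in 7 of 14: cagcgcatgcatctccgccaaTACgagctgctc
Gnaq: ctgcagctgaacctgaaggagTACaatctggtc
Gna11: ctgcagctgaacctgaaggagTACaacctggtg
Gna15: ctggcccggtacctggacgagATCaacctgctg
Gna12: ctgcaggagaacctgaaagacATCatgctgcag
Gnat3 (gustducin): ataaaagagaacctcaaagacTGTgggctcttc
The capital codon was TGT in Gnai1, Gnai2, Gnai3 and 1 Gnao1 end and TGC in the other Gnao1 end, both cysteine codons, as in gustducin. It was ATC in Gnaz, Gna15 and Gna12, and TAC in the Gnas end shown, Gnaq and Gna11. The remaining complete coding transcripts, 7 of Gnas and 1 of Gnai2, end in other sequences that are not shown. Over the whole coding sequence, Gnaq and Gna11 were the most alike pair, with 80.5% identical aligned bases, followed by Gnai1 with Gnai2 at 78.5% and Gnai1 with Gnai3 at 78.2%. No stretch of 50 bases was shared between transcripts of any 2 of the 10 genes, and the longest identical run between aligned Gnaq and Gna11 was 38 bases.

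All 10 genes were detected, meaning that the mean at their locus was at least 10 compatible fragments per library, which are fragments that match an annotated transcript. Of all loci 42.0% were detected, and 64.1% of loci with a protein-coding gene symbol. Values are the authors' means over libraries of fragments per locus, taken from a Cuffdiff variance model, a program that scales libraries to a common depth. The SD printed with each is the square root of the authors' variance, so it is not a separate replicate estimate, and it leaves out differences between sets of libraries, as shown further on. Summed over all loci, the mean library held 21881979 compatible and 23769781 total fragments. The total of a locus also counts fragments that match no annotated transcript. Only Gnai1, Gnai3 and Gna11 had a locus with no other gene symbol. In bulk RNA of this kind, fewer cells of a type and less RNA per cell cannot be told apart.

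Gnai3 and Gnai2, which encode widely expressed inhibitory alpha subunits, were among the abundant transcripts. Gnai3 had 6978 ± 994 compatible fragments (mean ± SD) and a total of 7062 ± 978 (chromosome 3, 108107280 to 108146146, GRCm38). Gnai2 had 5925 ± 534 compatible fragments and a total of 5939 ± 536 (chromosome 9, 107614125 to 107635367). Of all fragments at these loci, 98.8% were compatible at Gnai3 and 99.8% at Gnai2. The Gnai2 locus also holds the clone-named transcript RP23-456B9.18, with 1764 exon bases, whose fragments cannot be separated from those of Gnai2. Per kb of exon, Gnai3 had 2139 ± 305 compatible fragments and Gnai2 had 1568 ± 141, above 96.1% and 94.0% of the 8696 detected loci with 1 gene symbol.

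Gnai1, the third inhibitory subunit gene, stood apart from all other members by what kind of fragments it carried. Its locus had 423 ± 120 compatible fragments, against a total of 13750.0 ± 1527 (chromosome 5, 18265135 to 18360413). Only 3.07% of its fragments matched the annotated transcript, and the other 13327 did not. Among detected loci with 1 gene symbol, 7.51% had under 50% of their fragments compatible, and 20 of 8696, Gnai1 included, had a share at or below that of Gnai1. Of the 2844 such loci with a total of at least 1000 fragments, 16 had so low a share. The fragments that did not match were present at a steady level, because the CV of the total, its SD over its mean, was 0.111, against 0.284 for the compatible fragments.

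Where in the Gnai1 locus these fragments lay is not given in the table. The annotation used by the authors holds 1 Gnai1 transcript of 8 exons and 3193 bases, spread over 95279 bases of genome. Spread evenly over the 92.1 kb outside exons, the fragments that did not match would come to 145 per kb. At least as many were found at 54 of 7182 detected single-symbol loci with at least 1000 bases outside exons, whose median was 1.499 per kb. The corresponding values were 2.35 per kb at Gnai3, 4.31 at Gnas and 0.916 at Gnai2. Among alpha genes that are not members, they were 88.4 at Gnat3, 25.9 at Gnal and 12.8 at Gna14. At Gna13, Gnat1 and Gnat2 they were 2.22, 0.432 and 0.151. No stretch of 50 bases of the Gnai1 transcript occurs in transcripts of another gene in GENCODE M21. That annotation places 1 further gene inside the locus, the processed pseudogene Gm3527, on the opposite strand in the first Gnai1 intron (chromosome 5, 18350348 to 18350807). Gm3527 is no symbol of this locus in the annotation the authors deposited, and its part in the total was not tested.

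**Figure D1:**
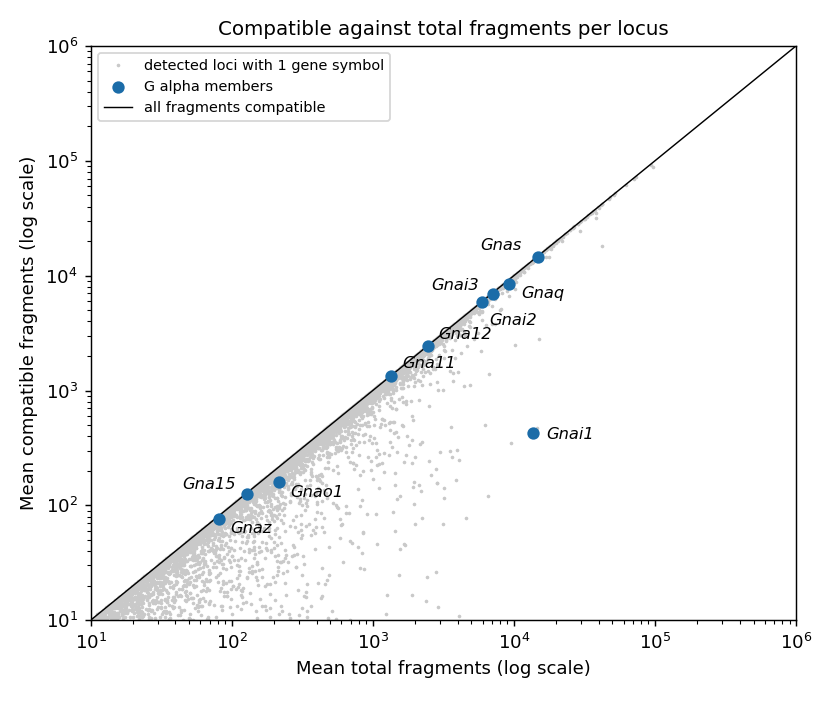
Mean compatible fragments against mean total fragments per locus, both on log scales, for detected loci with 1 gene symbol (grey) and the 10 G protein alpha genes (blue). The line marks loci where all fragments are compatible; Gnai1, with 423 compatible of 13750.0 total fragments, lies far below it, while 8 of the 10 genes have over 90% compatible.

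Gnao1 and Gnaz, genes best known from neurons and neuroendocrine cells, were the least abundant members per length. Gnao1, which encodes the alpha subunit of Go, had 160 ± 35.1 compatible fragments and a total of 218 ± 46.8 (chromosome 8, 93750147 to 93969388). Gnaz, which encodes a relative of Gi that pertussis toxin does not modify, had 76.2 ± 29.3 compatible fragments and a total of 81.3 ± 30.5 (chromosome 10, 74957477 to 75032586). Per kb of exon this made 23.5 ± 5.17 for Gnao1 and 21.1 ± 8.11 for Gnaz, ranges that overlap. Other lengths move both: Gnao1 had 46.1 per kb of its longest transcript and 14.4 per kb of its exons in GENCODE M21, and Gnaz had 11.5 per kb of all exons of its locus. Both loci hold genes on the opposite strand, Gm26843 and Gm24159 at Gnao1 and Rsph14 at Gnaz. No use of strand in the counting is given in the sources used here, so fragments of these genes cannot be told apart from those of Gnao1 and Gnaz, and both levels are uncertain. Of Gnao1 fragments 73.3% were compatible, the lowest share after Gnai1.

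Gnas, whose main product is the stimulatory subunit Gs alpha, was the member with the most fragments and the steadiest. It had 14557 ± 762 compatible fragments and a total of 14781 ± 750.1 (chromosome 2, 174281237 to 174346744). The locus is known for imprinting and for several first exons that lead to different products, and the deposited annotation gives it 26 transcripts with 11 groups of start sites. Its single value cannot be divided among them. Antisense genes Nespas and Gm20721 lie in the same locus, and 18.6% of the 50-base stretches of Gnas transcripts also occur in these 2 genes. The exons of all Gnas transcripts cover 11186 bases, over which Gnas had 1301 ± 68.2 compatible fragments per kb. Over its longest transcript of 4059 bases it would have 3586 per kb, the highest of the 10 genes.

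Members of the Gq family ran from abundant to sparse. Gnaq, the founding member, had 8480.1 ± 804 compatible fragments and a total of 9219 ± 918 (chromosome 19, 16132831 to 16387463). Gna11, its close relative in sequence and function, had 1351 ± 185 compatible fragments, with 99.6% of its total compatible (chromosome 10, 81528724 to 81545190). Gna15, a promiscuous subunit that couples to many receptors and is known from blood and epithelial cells, had 125 ± 72.4 compatible fragments (chromosome 10, 81502306 to 81524225). Per kb of exon, Gnaq had 1371 ± 130, Gna11 had 330 ± 45.1 and Gna15 had 58.8 ± 33.9, with no overlap of mean ± SD between the 3 genes. The Gnaq locus also holds Gm17068 and, on the opposite strand, E030024N20Rik, Gm10819 and Mir496b, together with 2148 exon bases against 6185 of Gnaq. The Gna15 locus holds Gm16106 on the opposite strand.

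Gna12, which encodes the alpha subunit of G12, had 2425 ± 306 compatible fragments and a total of 2459 ± 312 (chromosome 5, 140724127 to 140830431). Its level per kb of exon was 709.9 ± 89.6. The locus also holds Amz1 on the opposite strand, and 368 of 3409 stretches of 50 bases in Gna12 transcripts, or 10.8%, are shared with Amz1. With the exons of Amz1 counted in the length, the locus had 251 compatible fragments per kb.

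Set in order per kb of exon, the members ran from Gnai3, Gnai2, Gnaq and Gnas through Gna12, Gna11 and Gnai1 to Gna15, Gnao1 and Gnaz. The highest level was 101 times the lowest. Among neighbours in this order, mean ± SD overlapped for Gnai2 with Gnaq, Gnaq with Gnas, Gna15 with Gnao1 and Gnao1 with Gnaz. It did not overlap for Gnai3 with Gnai2, Gnas with Gna12, Gna12 with Gna11, Gna11 with Gnai1 or Gnai1 with Gna15. The order of the inhibitory pair depends on the length used, because over the longest transcript Gnai2 had 2435 and Gnai3 had 2139 per kb. By total fragments per kb of exon, Gnai1 moved from place 7 to place 1, with 4306 ± 478, while the other 9 genes kept their order. Some of these fragments may lie outside exons, so the exon length may be the wrong divisor for the Gnai1 total. Libraries were primed with oligo(dT), per the labels, and how evenly fragments cover a transcript was not tested.

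**Figure D2:**
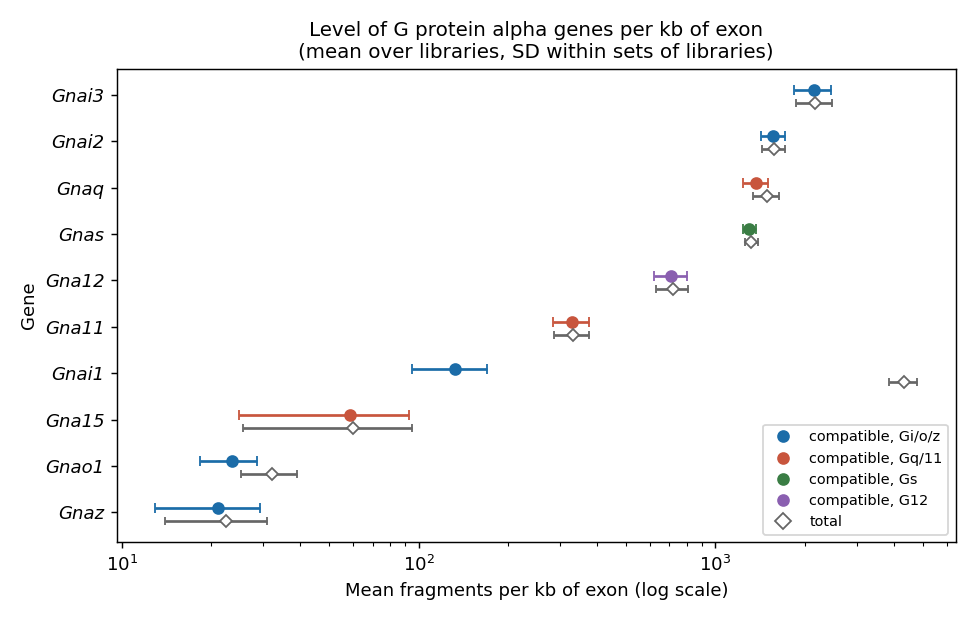
Mean fragments per kb of exon on a log scale for each of the 10 genes, with filled circles for compatible fragments, coloured by family, and open diamonds for total fragments; bars show the SD from the authors' variance, which leaves out differences between sets of libraries. Both markers lie close together except at Gnai1, at 132 compatible and 4306 total fragments per kb, and, to a lesser degree, at Gnao1, at 23.5 and 32.1.

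Beside the other G protein alpha genes, the 10 members together held 24.2% of the compatible level summed per kb over 16 genes, while Gnat3 held 60.3% and Gna14 held 13.6%. By total fragments the members held 29.2%, Gnat3 55.6% and Gna14 12.05%. Gnai1 held 0.418% by compatible and 10.5% by total fragments. The 3 inhibitory genes Gnai1, Gnai2 and Gnai3 made up 50.2% of the members' summed level by compatible fragments and 66.9% by total fragments. Of the remaining genes, Gna13 had 409.99 ± 53.3 compatible fragments per kb, and Gnal had 195 ± 47.1 (869 by total fragments). The transducin genes of photoreceptors, Gnat1 and Gnat2, had 1.12 and 1.38. The Gnal locus also holds other genes, so the Gnal values may include fragments of those genes.

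Several members lie close to another alpha gene on the chromosome, and levels differed widely within these 5 pairs. Gnai1 had 132 compatible fragments per kb and gustducin's Gnat3, the next gene on chromosome 5 at a distance of 245 kb, had 19066, or 144 times as many. By total fragments the difference was 5.32 times. Gnai2 had 1568 per kb, 1401 times the 1.12 of Gnat1, which lies 39.1 kb away on chromosome 9 with 1 other gene symbol between them. Gnai3 had 2139 per kb, 1552 times the 1.38 of Gnat2, which lies 5.85 kb away on chromosome 3. Gnat1 and Gnat2 had only 3.39 and 4.13 fragments at their loci, so these folds rest on very few fragments. Gnaq had 1371 per kb, against 4312 for Gna14, which lies 48.2 kb downstream on chromosome 19 and was 3.14 times as high. Gna15 had 58.8 per kb, against 330 for Gna11, 4.50 kb away on chromosome 10 and 5.61 times as high. Thus in the pairs of an inhibitory gene with a transducin-type gene, the inhibitory gene was higher by compatible fragments in 2 and lower in 1.

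By their CV, 7 of the 10 members varied less than the median detected locus. Their median CV was 0.140, against 0.231 over 13467 detected loci, and the 3 above that median were Gna15 with 0.578, Gnaz with 0.384 and Gnai1 with 0.284. The CV fitted by the authors depends on level, and was 0.162 at the abundant Gnas against 0.580 at the sparse Gnaz. Comparisons with loci of all levels, as made here, therefore do not separate spread from level. Gnas had a CV of 0.0524, and only 0.0115% of detected single-symbol loci had a CV as low. Gnai2 followed with 0.0901 and Gnaq with 0.0948. The spread behind these CVs is that inside sets of libraries. Where only 1 library held fragments, the ratio of variance to squared mean took the value due to a set of 8 at 474 loci, of 7 at 667 loci and of 6 at 454 loci, while the labels give 7 libraries to each group. The CV thus leaves out differences between those sets, and which set belongs to which condition is not known. Under this reading, no library can lie further than 22.5% of the mean from its set's mean at Gnas, or 38.6% at Gnai2.

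At Gna15 the spread was the largest of the members. Its CV was 0.578, and its variance exceeded the one the authors had fitted to genes of its level, with a log2 ratio of 0.52. It was the 1 member of 10 above the fitted variance, as were 26.1% of detected loci. Against a running median of the variance in place of the fit, 3 members lay above, namely Gna15, Gnai3 and Gnai1. The other 9 lay below the fitted variance, with log2 ratios from −3.26 at Gnas to −0.17 at Gnai1, and the members' median was −1.14, against −0.65 over detected loci. A single library could differ from its set's mean by up to 248% of the mean at Gna15 and 165% at Gnaz. Counting error alone would give a CV of about 0.0827 at Gna15 and 0.106 at Gnaz, so the measured CVs were 6.99 and 3.62 times as large, and over the 10 genes this factor ran from 3.002 at Gnao1 to 12.8 at Gnai3. Keratinocyte markers also varied widely, with CVs of 0.513 for Krt5, 0.561 for Krt6a, 0.987 for Krt14, 1.499 for Krt4 and 1.58 for Krt13. Whether Gna15 varied in the same libraries was not tested.

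**Figure D3:**
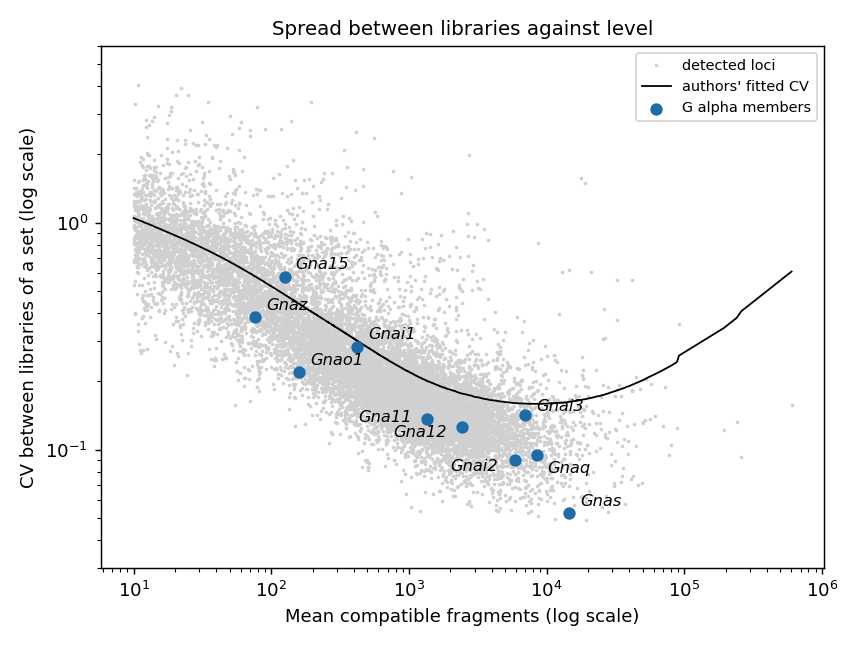
Coefficient of variation between libraries of a set against mean compatible fragments, both on log scales, for detected loci (grey) and the 10 G protein alpha genes (blue), with the authors' fitted CV as a line. Gna15, at 0.578, is the only one of the 10 genes above the line, and Gnas, at 0.0524, lies at the lower edge of the cloud.

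Markers of taste bud cells were present at all 11 genes listed, from Car4 with 1089 to Krt8 with 37058 compatible fragments. All 5 keratinocyte markers were also detected, with 84545 fragments in sum, against 120117 for the 11 taste bud markers. These sums cover different numbers of genes and are not divided by length, so they do not compare the amounts of the 2 cell types. Markers of tissue under the epithelium were detected for 5 of 7 nerve and Schwann cell genes, 2 of 3 endothelial genes, 1 of 4 fibroblast genes and 0 of 2 measured skeletal muscle genes. Beside these counts, 64.1% of loci with a protein-coding symbol were detected. Of the 5 detected nerve genes only 2 have a locus with no other symbol, and Nefl and Nefm share 1 locus and hence 1 value. Of the endothelial genes, Kdr had only 10.7 compatible fragments, with a CV of 4.04, and Pecam1 had 42.6. Of leukocyte markers 3 of 5 were detected, the highest, Csf1r, at a locus of 4 symbols, and Cd3e was listed at 0. Of erythrocyte markers 0 of 2 were detected. Among Von Ebner gland markers Bpifa2, Obp2a and Obp2b were listed at 0, and Dmbt1 lies in a locus of 44 symbols, which gives it no value of its own. The part of these cell types in the members' levels was not tested.

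The deposited annotation gives the 10 genes 75 transcripts, of which 59 are coded as matching a reference transcript and 16 as new isoforms. Whether those 16 were assembled from reads was not tested. New isoforms belong to 5 genes, 6 to Gnao1, 4 each to Gnai2 and Gnas and 1 each to Gnaq and Gnaz. All 5 genes lie at loci with other gene symbols. Of detected single-symbol loci 34.4% have at least 1 new isoform, while the members at such loci, Gnai1, Gnai3 and Gna11, have 0. The new isoforms of the members add 0 exon bases and 0 introns to the reference transcripts of these genes. How they differ from those transcripts was not examined. Over the whole annotation 28 of 110265 introns of new isoforms were absent from reference transcripts, and new isoforms added 27429 exon bases. Of 27826 genes with 1 reference transcript, 63 had a new isoform, against 8268 of 15367 genes with several. Gnai1, Gnai3 and Gna12 each have 1 reference transcript and no new isoform. Whether annotation of isoforms bears on the compatible share was not tested.

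**Figure D4:**
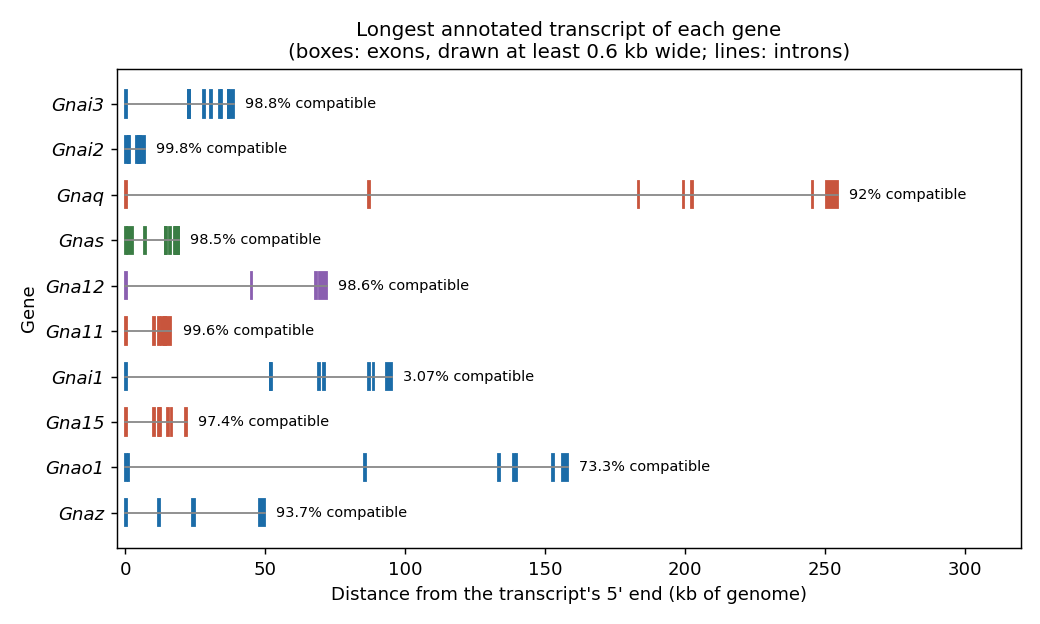
Longest annotated transcript of each of the 10 genes, drawn from its start in kb of genome, with exons as boxes (at least 0.6 kb wide) coloured by family, introns as lines and the compatible share of the locus printed beside it. The printed shares run from 3.07% at Gnai1 to 99.8% at Gnai2.

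Of 62 partner genes found in the annotation, 52 were detected, 21 of them at a locus with no other symbol, and 64.1% of loci with a protein-coding symbol were detected. All 5 beta subunit genes were detected, and Gnb3, the beta subunit known from taste cells, led those at single-symbol loci with 4487 ± 542 compatible fragments per kb, followed by Gnb5 with 195 ± 42.8. Gnb1, with 2306 ± 151 per kb at a locus of 2 symbols, and Gnb2, with 1159 ± 83.1 at a locus of 6, lay between them. Of 12 gamma subunit genes 8 were detected. The 2 at single-symbol loci were Gng5 with 443 ± 61.9 and Gng2 with 38.5 ± 17.1 per kb, and Gng2 was the lowest of the 8. At loci with other symbols, Gng10, Gng3 and Gng12 were higher than Gng5, with 734, 561 and 459 per kb. Gng13, the gamma partner of gustducin, had 2118 ± 384 per kb at a locus of 2 symbols, and was named after its value was seen. Of 27 regulators, 26 were measured and 24 detected, led by the GTPase-activating proteins Rgs21 with 8013 ± 1385 per kb, Rgs2 with 1638 ± 174 and Rgs13 with 730.0 ± 137.

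Adenylyl cyclase genes were sparser than Gnas. Of 9 adenylyl cyclase genes, the enzymes that Gnas and the Gnai genes control, 6 were detected, and Adcy1 was the only one of these at a single-symbol locus, with 78.5 ± 18.7 per kb, against 1301 for Gnas. By compatible fragments, the highest of the 9 was Adcy3 with 109 ± 18.7 per kb at a locus of 3 symbols. Adcy9 had 33.2 per kb, but only 19.1% of its fragments were compatible, and its total of 902 exceeded the 732 of Adcy3. Of 10 effectors of Gq and G12/13, 9 were detected, and at single-symbol loci Plcb2, the phospholipase of type II taste cells, led with 429 ± 70.3 per kb, although only 18.9% of its fragments were compatible. Arhgef12, an effector of Gna12 and Gna13, had 235 ± 33.6 and Plcb3 had 118 ± 29.5, also at single-symbol loci. By compatible fragments, the highest of the 10 effectors was Plcb4 with 491 ± 92.8 per kb at a locus of 4 symbols. The median CV of detected genes was 0.121 for beta subunits, 0.169 for gamma subunits, 0.179 for Gq and G12/13 effectors, 0.244 for regulators and 0.258 for adenylyl cyclases, beside 0.140 for the 10 alpha genes.

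**Figure D5:**
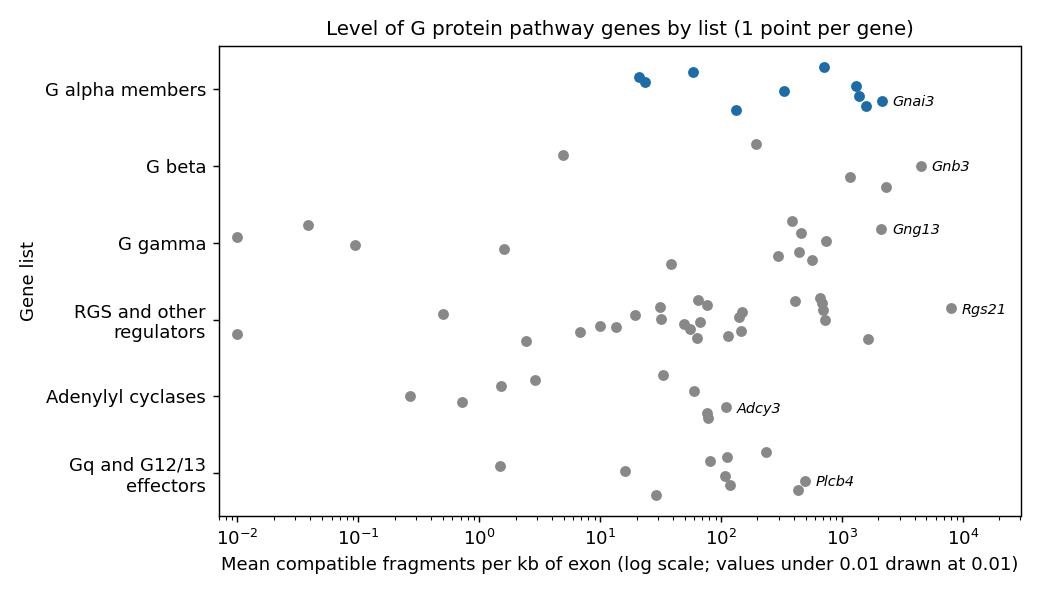
Mean compatible fragments per kb of exon on a log scale for the 10 G protein alpha genes (blue) and 5 lists of partner genes (grey), with 1 point per gene and the highest gene of each row named; values under 0.01 are drawn at 0.01. The alpha genes span 21.1 to 2139, and no adenylyl cyclase gene exceeds 109.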

How the data were processed

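RNA from circumvallate taste buds was sequenced as 21 libraries. Per the submitters' processing notes, the tools were Cuffdiff, Cufflinks, Bowtie2, TopHat, FastQC and Trimmomatic, with GRCm38.p4 as build; the notes give neither version nor order. Per the file headers, the deposited table is a Cuffdiff variance model. For each locus it holds mean compatible and mean total fragments, their variances and a fitted variance. The values are not divided by length, and the libraries' scaling factors were not used here. The depth of each library is not given in the table, and values per library were not used here. The members, lists and measures were chosen with earlier results of these data known, so no choice of genes here is independent of them.

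Loci were matched to genes by exon overlap with the deposited annotation, and 10 of 10 members were found. Detection needed a mean of at least 10 compatible fragments. Level per kb divided a locus's fragments by all exon bases of the gene's transcripts. Counting error took the variance as equal to the mean, for size factors near 1. Sharing of sequence was searched over all GENCODE M21 transcripts (GRCm38) on both strands with stretches of 50 bases. Genes named were the 10 members, the other G protein alpha genes and, of each list, up to 3 highest per kb at single-symbol loci; any others were picked with their values in view. No test was possible on pooled means. The recognition of library sets, within a relative tolerance of 0.0001, and the bound on a library's deviation were tested on simulated data. The simulation was built with the same set sizes and variance formula. It therefore checks the calculation, and cannot show that the authors' libraries form such sets. Alternatives were other detection levels, total fragments, other lengths and a running median of the variance over 201 loci. Python 3.11.15, numpy 2.4.6, pandas 2.3.3, matplotlib 3.10.9 and Biopython 1.88 were used.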

Additional observations from a re-analysis of the deposited data

How the results depend on the processing

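No paired analysis was possible because the table holds no values per library, so replicate numbers could not be used, and no library could be left out. All 10 members were detected at a mean of at least 1 or 50 compatible fragments and at 10 total fragments, and the counts for the 5 partner lists stayed within 1.5 times. Against a running median of the variance, 3 members lay above it (Gna15, Gnai3 and Gnai1), and against the fitted variance 1 did. Of the 3 members with no other symbol at their locus, 0 lay above the fitted variance. In the order per kb of exon, 4 of 10 members kept their place when levels were not divided by length, 3 by total fragments, 7 by the longest transcript, and, in alternatives chosen after seeing the data, 5 with all exons of the locus as length and 8 with the exons of GENCODE M21. Levels per kb moved by more than 1 SD at 5 members by the longest transcript and at 2 by total fragments, Gnai1 to 4306 and Gnao1 to 32.1. Gnao1 fell to 14.4 per kb with the longer exons of GENCODE M21. Depth limits Gnaz, Gna15 and Gnao1 most, and counting error alone gives Gnaz a CV of 0.106.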

Other observations

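Low compatible shares were also found among genes that work with the alpha subunits. Of 55 such genes with a total of at least 10 fragments, 9 had under 50% of fragments compatible, or 16.4%. At single-symbol loci this held for 4 of 23 such genes, or 17.4%, against 25.9% of all single-symbol loci with that total. Among all single-symbol loci with a total of at least 500 fragments it held for 6.04%. The share of the partner genes at that higher total was not calculated. Rgs18, a regulator of G protein signalling known from blood cells, had 1.02 compatible of 596 total fragments, or 0.171%. Rgs9, the regulator known from photoreceptors and striatum, had 87.2 of 1391, or 6.27%. Plcb2 had 2833 of 14992, or 18.9%, and Adcy9 had 172 of 902, or 19.1%, at a locus of 2 symbols. Among the other alpha genes Gnal, which encodes an olfactory relative of Gs, had 1125 compatible of 5008 total fragments, or 22.5%, at a locus of 3 symbols. GENCODE M21 also places the protein-coding gene Chmp1b inside this locus (chromosome 18, 67205366 to 67207889). Chmp1b is no symbol of the locus in the deposited annotation, and its part in the total was not tested. The total of the Gnal locus varied with a CV of 0.0667, against 0.241 for its compatible fragments. As at Gnai1, the total was the steadier value. All of these were singled out for their low share.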
